A study of Mus musculus with 24 samples.

Results

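The 6 actin genes of the mouse (Acta1, Actc1, Acta2, Actg2, Actb and Actg1) and the smooth muscle genes Tagln and Cnn1 are described here, 8 of the 28109 genes in the deposited count table. They were taken by gene name, and each name was found once. The RNA came from C2C12 cells, a widely used C3H myoblast line, and from primary myoblasts (PMs) isolated from wild-type C57BL/6 mice 3 to 4 weeks of age and plated on matrigel. Both were transfected with siControl, for which the labels name luciferase as the target, or with siTead1/4, pools of siRNAs against Tead1 and Tead4 together. Libraries of polyA RNA were made before differentiation on the day after transfection (day 0) and at day 3 and day 6 in medium low in horse serum. Each of the 12 groups had 2 replicates, which the labels call biological. C2C12 cells are 1 line, and strain, origin and culture cannot be told apart from cell type wherever PMs and C2C12 cells are compared.

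Actin monomers polymerise into the filaments on which myosin pulls. Acta1 and Actc1 encode the skeletal and cardiac alpha-actins of the striated thin filament, and developing skeletal muscle expresses both before Acta1 predominates in the adult. Acta2 and Actg2 encode the actins of vascular and visceral smooth muscle, Actb and Actg1 the cytoplasmic actins of nearly all cells, and Tagln (transgelin) and Cnn1 (calponin) are actin-binding proteins used as smooth muscle markers. Serum response factor (Srf) activates many of these genes through CArG boxes, with the Mkl and myocardin cofactors. Tead factors bind the MCAT element, for which the study gives the consensus CATTCC followed by A or T.

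The 8 genes lie on 7 chromosomes. In the mm9 build of the files Acta1 is at chr8:126415669-126418651, Actc1 at chr2:113873018-113879284, Acta2 at chr19:34315580-34329826 and Actg2 at chr6:83462899-83486259, all on the minus strand. Actb is at chr5:143664794-143668433, Actg1 at chr11:120207004-120209856 and Tagln at chr9:45737711-45744141, also on the minus strand, and Cnn1 is at chr9:21903725-21914074 on the plus strand. The values given below come from read counts per gene. As the kit does not keep the strand, Tagln can share reads with Pcsk7 on the opposite strand, with which 65 bases (4.1%) of its exons overlap.

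The actins are nearly the same protein from different messages. Acta2 and Actg2 differed at 2 residues, Acta1 and Actc1 at 4, and Actb and Actg1 at 4, in proteins of 375 to 377 residues translated from the coding sequences of the annotation. Identity over the 15 pairs ran from 93.6% to 99.5% for the protein but from 81.9% to 88.7% for the coding bases. The 50-base windows of 1 annotated transcript per gene were sought elsewhere in mm9 and in transcripts of other genes. None of Actc1, Actg2 or Cnn1 were found, against 0.404% of the windows of Acta2, 2.22% of Acta1 and 14.7% of Actb. For Tagln 1.04% were found in transcripts of other genes and none elsewhere in mm9. For Actg1 the share found was 96.7%, so its counts depend on how reads with several matches were treated. That treatment is not given in the sources used here, and the level of Actg1 is uncertain. Windows of Actg1 were found in 20 places elsewhere in mm9. The processed copy Actg-ps1 held 3 to 43 counts per library, and counts at other places were not looked at.

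RefSeq promoter windows (GRCm38.p6, a later build than that of the counts) were at hand for 5 of the 8 genes: Acta1, Actc1, Acta2, Actg1 and Cnn1. The 250 bases before the start site are printed for the striated pair, whose levels moved together, and for Acta2, 5′ to 3′ along the minus strand. Capitals mark the MCAT letters CATTCC on either strand and CArG boxes (2 C, a run of 6 A or T, 2 G) with at most 1 other letter in the run.
Acta1 (chr8:123894776-123895025): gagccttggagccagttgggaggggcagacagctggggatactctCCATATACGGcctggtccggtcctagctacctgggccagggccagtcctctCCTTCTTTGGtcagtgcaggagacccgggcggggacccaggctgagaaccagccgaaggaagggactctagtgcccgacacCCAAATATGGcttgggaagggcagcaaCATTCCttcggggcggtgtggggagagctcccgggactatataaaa
Actc1 (chr2:114052876-114053125): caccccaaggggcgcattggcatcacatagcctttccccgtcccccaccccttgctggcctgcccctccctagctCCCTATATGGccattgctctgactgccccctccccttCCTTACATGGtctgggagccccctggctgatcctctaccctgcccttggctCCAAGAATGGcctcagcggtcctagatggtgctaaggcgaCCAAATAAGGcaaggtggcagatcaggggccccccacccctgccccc
Acta2 (chr19:34255374-34255623): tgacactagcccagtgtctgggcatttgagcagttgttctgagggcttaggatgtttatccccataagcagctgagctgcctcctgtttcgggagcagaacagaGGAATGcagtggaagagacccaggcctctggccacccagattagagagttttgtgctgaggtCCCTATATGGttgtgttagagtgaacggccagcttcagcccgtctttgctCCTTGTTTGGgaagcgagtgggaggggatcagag
A CArG box with no other letter stood at -73 in Acta1 (CCAAATATGG), at -47 in Actc1 (CCAAATAAGG) and at -90 in Actg1 (CCATATATGG), counted from the start site to the first base, and was found in 1.47% of 32851 promoter windows of the same length. The 2 boxes marked in Acta2 each have 1 other letter, at -84 and -34, a form found in 8.59% of the windows. The MCAT letters stood at -46 in Acta1 and, on the other strand, at -146 in Acta2. The 6 letters CATTCC were found on either strand in 12.6% of the windows. The share for the consensus with its last A or T was not counted. These are matches of letters only.

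Each library held 25453830 to 52784510 counts on genes. Gene levels below are in CPM, the count of a gene scaled by library size, on the TMM scale of edgeR over all 24 libraries. A gene is called in a comparison at an adjusted p under 0.05 and a log2 fold change beyond 1 in either direction. Calls are from the quasi-likelihood test of edgeR. Unless another fit is named, genes with low counts were filtered out and replicate number was not in the model. Tead4 was lower in both siTead1/4 libraries than in both siControl libraries at each day in each cell type, and was called at days 0 and 3 in C2C12 cells (log2 fold changes of -2.21 and -1.76) and at days 0, 3 and 6 in PMs (-2.36, -2.58 and -1.75). Tead4 was not called in C2C12 cells at day 6 (-1.28, adjusted p = 0.32). Tead1 was called in PMs at days 0 and 3 (-1.44 and -1.68) and not at day 6 (-1.10, adjusted p = 0.14). In C2C12 cells Tead1 was called at no day, with -1.09 at day 3 (adjusted p = 0.5) and -0.52 at day 6 (adjusted p = 0.95). Its day 6 libraries overlapped, at 76.0 and 136 CPM with siControl and 70.6 and 77.0 with siTead1/4. In C2C12 cells at day 0 it was at 70.5 and 113 CPM with siControl and at 28.9 and 4.5 with siTead1/4 (log2 fold change -2.46, SE 0.66, adjusted p = 0.17), so the replicates of the silenced C2C12 cells were uneven. They were uneven for the genes described here too. At day 0 all 8 stood higher in replicate 2 than in replicate 1 of these cells, with a ratio of 1.90 for Actb and 3.87 for Cnn1. Summed levels of 7 myogenic markers were 1108 to 1252 CPM at day 0 and 10270 to 13020 at day 3 in siControl C2C12 cells, and 7886 to 8192 and 19730 to 19900 in PMs. The endothelial, macrophage and Schwann lists (5, 5 and 4 genes) summed to at most 16.1, 2.42 and 14.2 CPM in any library.

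The make-up of the actin messages changed from mostly cytoplasmic to mostly sarcomeric in C2C12 cells, while PMs were mostly sarcomeric from the start. Levels were divided by the transcript length in the table to compare genes, and the 6 actins were summed. In siControl C2C12 cells Acta1 and Actc1 made up 1.32% and 0.362% of this sum in the 2 libraries of day 0, 64.8% and 67.1% by day 3, then 69.7% and 68.6% on day 6. Cytoplasmic Actb and Actg1 made up 71.4% and 75.3% at day 0 and 8.56% and 8.02% at day 6, while the smooth muscle pair, mostly Acta2, kept 21.8% to 27.3% throughout. In siControl PMs the sarcomeric share was already 62.6% and 59.7% at day 0 and was 90.7% and 90.3% at day 3. The smooth muscle share in these PMs was 6.46% to 12.1%, below that of every C2C12 library. The libraries at days 3 and 6 of silenced C2C12 cells stood apart from one another, with sarcomeric shares of 38.0% and 60.8% at day 3 and 49.2% and 65.2% at day 6, all under those of siControl. The silenced PMs had 59.2% to 88.2%. The 6 actins together took 0.434% to 1.43% of all counts in C2C12 libraries and 0.715% to 1.49% in PM libraries.

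**Figure D1:**
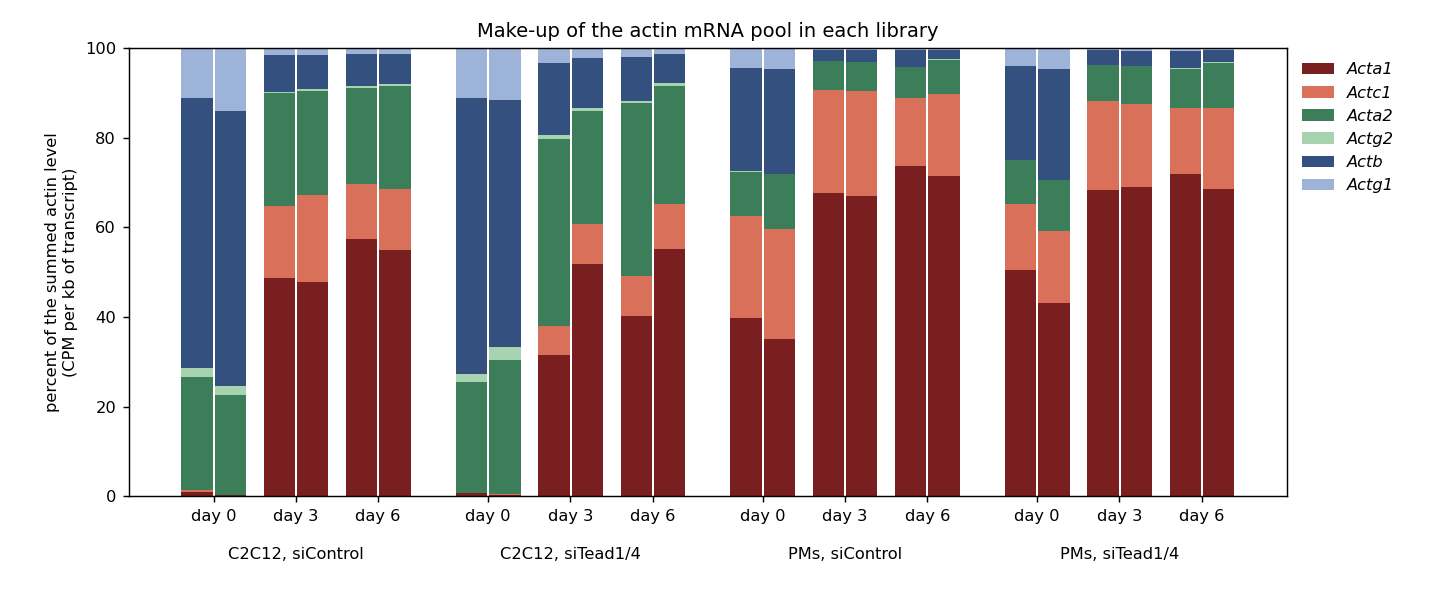
Make-up of the actin messages in each library, as the percent that each of the 6 actin genes contributes to the summed actin level in CPM per kb of transcript. Each bar is 1 library, with the 2 replicates of a group side by side; the sarcomeric genes Acta1 and Actc1 (red) go from under 2% to over 60% between day 0 and day 3 in siControl C2C12 cells and are at about 60% in PMs at day 0.

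The order of the genes per kb followed from this. In siControl C2C12 cells at day 0 it was Actb (mean 1496 CPM per kb), Acta2 (587), Actg1 (311), Tagln (143), Actg2 (50.7), Acta1 (15.4), Actc1 (5.58) and Cnn1 (3.76), and the last 3 overlapped with their neighbours between libraries. At day 6 it was Acta1 (3587), Acta2 (1414), Actc1 (829), Actb (438), Tagln (253), Actg1 (91.7), Actg2 (28.6) and Cnn1 (1.20), with no overlap between neighbours. In siControl PMs at day 0 Acta1 led (1610), followed by Actc1 (1021) and Actb (1001), which overlapped, then Acta2 (471), Actg1 (199), Tagln (47.4), Actg2 (1.21) and Cnn1 (0.0893). At day 6 the PMs had Acta1 at 7492, Actc1 at 1737 and Acta2 at 757, while Actb (292.5) and Tagln (236) overlapped, and Actg2 (6.94) and Cnn1 (2.26) did so as well.

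**Figure D2:**
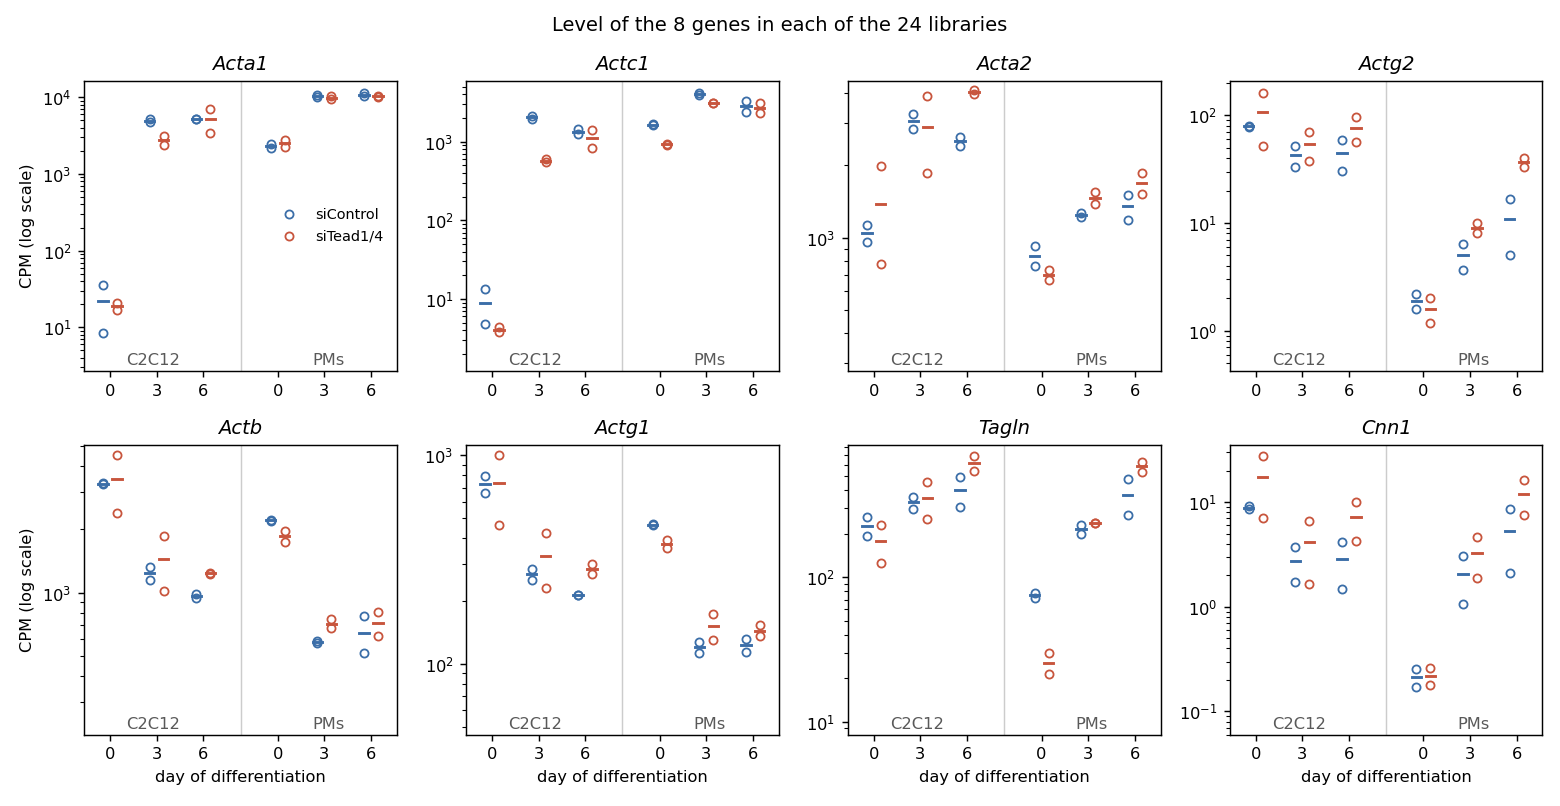
Level of each of the 8 genes in CPM (log scale) at days 0, 3 and 6 in C2C12 cells (left of each panel) and PMs (right). Circles are single libraries, 2 per group, and bars are their means; blue is siControl and red siTead1/4. Acta1 and Actc1 are near 10 CPM in C2C12 cells at day 0 and far higher at the other days and in PMs, and Actg2 and Cnn1 are lowest in PMs at day 0.

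The first comparison asks how these genes changed as siControl C2C12 cells differentiated. Acta1 was at 36.0 and 8.48 CPM at day 0 and at 5156 and 4729 at day 3, a log2 fold change of 7.76 (SE 0.73, adjusted p = 3.6e-05). Actc1 was at 13.3 and 4.76 and then at 1925 and 2152 (7.78, SE 0.55, adjusted p = 6.5e-06). The sarcomeric actins thus rose more than 100-fold. The day 0 libraries set much of the width of these estimates, and without replicate 1 or 2 of day 0 the value for Acta1 was 9.15 or 7.06. Acta2 stood at 1127 and 963 CPM at day 0 and at 3264 and 2830 at day 3 (1.5, SE 0.45, adjusted p = 0.022). Cytoplasmic Actb went the other way, from 3313 and 3276 CPM to 1327 and 1148 (-1.45, SE 0.35, adjusted p = 0.0086), and Actg1 from 656 and 797 to 285 and 253 (-1.47, SE 0.37, adjusted p = 0.011). In all 5 cases the libraries of the 2 days did not overlap. Of the 8 genes, 3 were called higher and 2 lower at day 3, beside 16% higher and 12.7% lower of the 15303 genes tested (28.7% in all). The same 5 were called at day 6, where 17.1% of all genes were higher and 14% lower (31.1% in all).

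The other smooth muscle genes were not called in these cells. Actg2 was at 80.4 and 77.8 CPM at day 0 and at 33.0 and 52.2 at day 3 (-0.93, SE 0.54, adjusted p = 0.19). Tagln was at 261 and 193 CPM, then at 299 and 362, and at day 6 at 305 and 498 (0.78, SE 0.38, adjusted p = 0.12 against day 0). Cnn1 was at 9.18 and 8.62 CPM and then at 1.72 and 3.77 (-1.73, SE 0.82, adjusted p = 0.12). The libraries of day 0 and day 3 did not overlap for any of the 3, with Actg2 and Cnn1 lower and Tagln higher at day 3. Fitted on the 4 libraries compared, Cnn1 was called (-1.71, adjusted p = 0.0052). The call of Acta2 was lost when any 1 of the 4 libraries was left out, with values from 1.40 to 1.63 and adjusted p from 0.062 to 0.12 at day 3, and from 1.13 to 1.35 and 0.11 to 0.18 at day 6. The day 3 call of Actg1 was lost without either day 3 replicate (-1.55 and -1.39) or day 0 replicate 2 (-1.32), and that of Actb without day 3 replicate 2 (-1.36, adjusted p = 0.071). Between days 3 and 6 edgeR called none of the 8 and none of all genes (background 0%), none of the 8 had an unadjusted p under 0.05 (2.65% of all genes), and DESeq2 called none of the 8.

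In siControl PMs the sarcomeric actins started high and rose by less, while Tagln, Cnn1 and Actg2 rose. Acta1 was at 2492 and 2165 CPM at day 0 and at 10830 and 10030 at day 3 (2.11, SE 0.14, adjusted p = 1e-06). Actc1 was at 1614 and 1691 CPM, then at 4158 and 3918 (1.23, SE 0.17, adjusted p = 0.00012), and at 2364 and 3256 at day 6 (0.70, SE 0.17, adjusted p = 0.0041 against day 0), where it no longer passed the fold threshold. Acta2 was at 758 and 919 CPM at day 0 and 1269 and 1224 at day 3 (0.52, SE 0.16, adjusted p = 0.015), also under the fold threshold. Each of these 3 genes stood higher in both day 3 libraries than in both day 0 libraries. Tagln went from 77.7 and 72.5 CPM at day 0 to 232 and 201 at day 3 and 480 and 268 at day 6 (2.25, SE 0.25, adjusted p = 2.1e-05 for day 6 against day 0). Cnn1 went from 0.17 and 0.254 CPM, that is 8 and 9 counts, to 8.57 and 2.12 CPM at day 6 (4.6, SE 0.88, adjusted p = 0.001). Actg2 went from 2.2 and 1.58 CPM to 16.6 and 5.05 (2.44, SE 0.51, adjusted p = 0.0017). For all 3 the day 6 libraries lay above those of day 0, but the 2 replicates of day 6 were 1.79-fold apart for Tagln, 4.04-fold for Cnn1 and 3.29-fold for Actg2.

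The cytoplasmic actins fell in PMs as well. Actb was at 2198 and 2207 CPM at day 0 and at 587 and 578 at day 3 (-1.97, SE 0.18, adjusted p = 7.7e-06), and Actg1 at 466 and 464 and then at 112 and 128 (-2.01, SE 0.15, adjusted p = 1.4e-06). Actb is the gene that the study used as the reference in its RT-qPCR. Relative to Actb in the same library, the log2 difference of Actg1 from day 0 was -0.01 and 0.02 at days 3 and 6 in C2C12 cells and -0.04 and -0.12 in PMs, so the 2 cytoplasmic genes kept their ratio, and that of Acta2 in PMs at day 3 was 2.50 in place of 0.52. In all, 7 of the 8 genes were called in PMs at day 3 (5 higher, 2 lower) and 6 at day 6 (4 higher, 2 lower), beside 17.5% higher and 14.9% lower (32.3% in all) of the 16144 genes tested at day 3 and 20.2% and 15.3% (35.5% in all) at day 6. Between days 3 and 6 edgeR called none of them (background 2.8%), as did DESeq2, while Actc1, Actg2 and Tagln had an unadjusted p under 0.05 (22% of all genes). Actg2 was no longer called at day 3 without replicate 1 (1.63) or 2 (1.14) of day 0 or replicate 1 of day 3 (0.89), and Cnn1 not without replicate 1 of day 0 (2.94) or of day 3 (2.29).

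**Figure D3:**
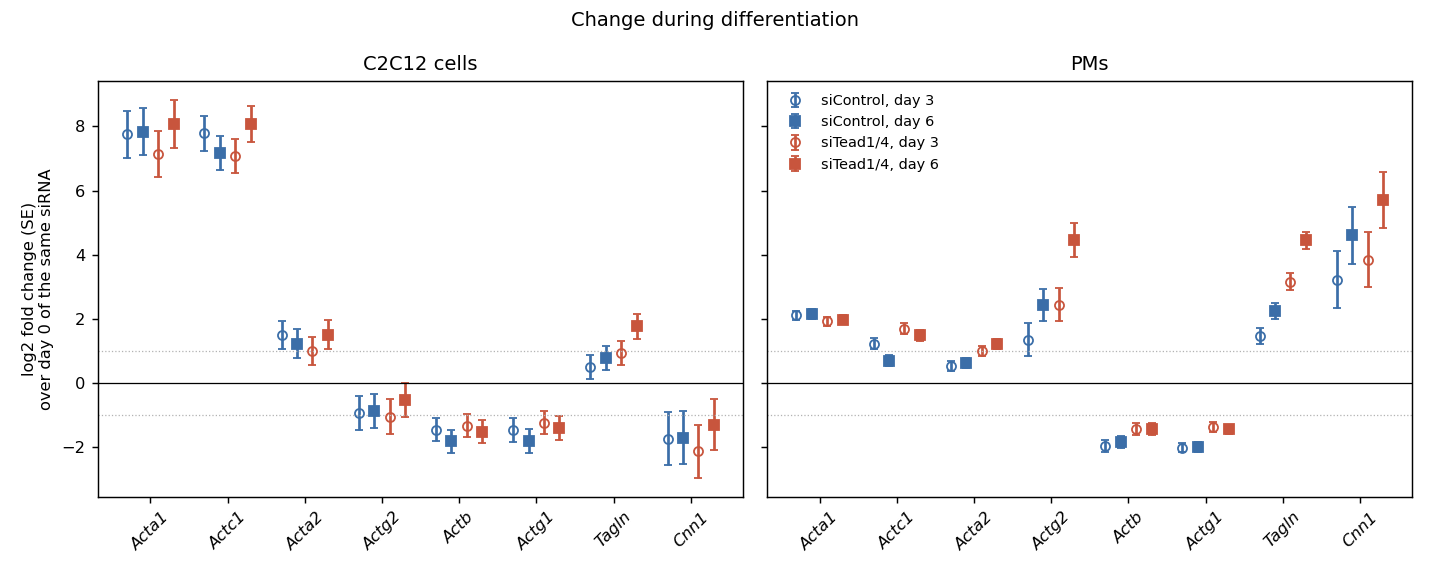
Log2 fold change of each gene at day 3 (open circles) and day 6 (filled squares) over day 0 of the same siRNA, for siControl (blue) and siTead1/4 (red), in C2C12 cells and PMs. Bars are SE from edgeR with 2 libraries per group, and dotted lines mark a log2 fold change of 1 and -1; Acta1 and Actc1 lie between 7.07 and 8.08 in C2C12 cells and between 0.70 and 2.15 in PMs.

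Other cell types could lend smooth muscle messages to a culture, and in bulk RNA fewer cells of a type and less RNA per cell cannot be told apart. The summed level of 8 fibroblast markers in siControl PMs was 575 to 580 CPM at day 0, 1723 to 1977 at day 3 and 4278 to 5190 at day 6, and that of 11 smooth muscle and pericyte markers 555 to 607, 822 to 870 and 743 to 760. In siControl C2C12 cells the fibroblast sum was 851 to 1349 at day 0 and 2920 to 3667 at day 3, and the smooth muscle and pericyte sum 291 to 295.5 and 652 to 737. Of the smooth muscle and pericyte markers tested, 4 of 8 rose and 1 fell (Mcam, -2.25) at day 3 in siControl C2C12 cells. In siControl PMs 5 of 10 rose and 2 fell at day 3, with mean Abcc9 going from 32.5 to 228 CPM and Rgs5 from 67.2 to 2.41. Over all genes 16% rose and 12.7% fell in C2C12 cells, and 17.5% and 14.9% in PMs. Of the fibroblast markers tested, 5 of 6 rose at day 3 in these C2C12 cells, and 3 of 7 at day 3 and 5 of 7 at day 6 in PMs, among them Col1a1 (4.08) and Postn (3.99) at day 3, while Tcf21 was at 0 counts in every library. Several genes of both lists are expressed by myoblasts or myotubes too. The part of other cells in the results was not tested.

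Compared directly at day 0, siControl PMs held far more sarcomeric actin message than siControl C2C12 cells and far less of 3 smooth muscle genes. Acta1 was 6.72 higher in PMs on the log2 scale (SE 0.55, adjusted p = 4.7e-08) and Actc1 7.53 higher (SE 0.44, adjusted p = 9e-10). Actg2 was lower in PMs (-5.37, SE 0.66, adjusted p = 5.9e-06), as were Cnn1 (-5.40, SE 1.07, adjusted p = 0.00065) and Tagln (-1.59, SE 0.35, adjusted p = 0.0014). Acta2, Actb and Actg1 were not called at day 0 (-0.32, -0.58 and -0.64). These 5 calls stand beside 26.8% of the 16926 genes tested.

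At day 3 the difference in the sarcomeric pair had narrowed to 1.08 for Acta1 (adjusted p = 0.051) and 0.99 for Actc1 (adjusted p = 0.021), neither of them called, although both PM libraries lay above both C2C12 libraries. The 4 genes called at day 3 were all lower in PMs: Actg2 (-3.08), Acta2 (-1.29), Actg1 (-1.17) and Actb (-1.09), beside 12.6% of all genes lower (29.8% either way). With DESeq2, Acta1 (1.10, adjusted p = 0.024) and Actc1 (1.01, adjusted p = 0.0074) were called as well. At day 6 Actc1 (1.07, adjusted p = 0.017) and Actg2 (-2.04, adjusted p = 0.0091) were called, with a background of 24.9%, and Acta1 (1.06, adjusted p = 0.062) was called with DESeq2 (1.07, adjusted p = 0.034). Actc1 lost this call without PM replicate 2 (0.80) or C2C12 replicate 1 (0.94) or 2 (1.16), and Actg2 without PM replicate 2 (-1.44) or C2C12 replicate 2 (-1.52). Tagln, at 305 and 498 CPM in C2C12 cells and 480 and 268 in PMs, overlapped by then.

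The siControl response to differentiation was also set between the cell types in 1 model over all libraries, as the log2 fold change in PMs minus that in C2C12 cells. It was called for Acta1 (-5.64, SE 0.65), Actc1 (-6.54) and Cnn1 (4.97, adjusted p = 0.02) at day 3, and for these 3 with Actg2 (3.34, adjusted p = 0.0093) and Tagln (1.49, adjusted p = 0.046) at day 6, beside 11.2% and 12.7% of all genes. Acta1 and Actc1 thus rose less in PMs, from a higher start. Cnn1 and Actg2 were lower at day 3 than at day 0 in both C2C12 libraries and higher in both PM libraries. The 2 sets of day 0 libraries enter both days of this comparison. With 1 library left out, Cnn1 at day 3 was no longer called without PM replicate 1 (4.69) or 2 (5.26) of day 0, PM replicate 1 of day 3 (4.03) or C2C12 replicate 1 of day 3 (4.52). Actg2 at day 6 was not called without PM replicate 1 of day 6 (2.24) or PM replicate 2 of day 0 (3.13). Tagln at day 6 kept its call without PM replicate 2 (1.86) or C2C12 replicate 2 (1.90) of day 6 and lost it without any other library, with PM replicate 1 of day 6 giving the lowest value (1.02), C2C12 replicates 1 and 2 of day 0 giving 1.26 and 1.71, C2C12 replicate 1 of day 6 giving 1.18, and PM replicates 1 and 2 of day 0 giving 1.55 and 1.45. With RLE normalization the call of Tagln at day 6 was lost as well (1.49, adjusted p = 0.052). Actg2 at day 3 (2.30, adjusted p = 0.073) was called with DESeq2 (2.33, adjusted p = 0.022).

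In the edgeR fit of the C2C12 libraries, with low-count genes filtered out, silencing of Tead1 and Tead4 called none of the 8 genes. The background of all genes called was 0.438%, 1.27% and 0.0457% at days 0, 3 and 6. At an unadjusted p under 0.05, which 10.5%, 14.2% and 6.95% of all genes had at these days, Actc1 passed at days 0 and 3 and no other member passed, and DESeq2 called Actc1 at day 3. This gene was at 1925 and 2152 CPM with siControl and at 547 and 599 with siTead1/4 at day 3 (-1.86, SE 0.42, adjusted p = 0.066 with edgeR, and -1.87, adjusted p = 0.00044 with DESeq2). In 1 fit of edgeR over all 24 libraries it was also called (-1.83, adjusted p = 0.0046). At day 0 its values were 13.3 and 4.76 against 3.78 and 4.39 (-1.14, SE 0.43, adjusted p = 0.36), and at day 6 they were 1244 and 1439 against 834 and 1417 (-0.25, SE 0.40, adjusted p = 0.96). Silenced libraries thus lay below siControl at days 0 and 3 and overlapped with it at day 6. The myogenic markers summed to 3802 to 4883 CPM in the silenced cells at day 3, against 10270 to 13020 with siControl. Of the 7 only Myh3 was called, with means of 6633 CPM with siControl and 1222 with siTead1/4. The median log2 fold change of the 7 was -0.58. The 5 cardiac markers summed to 5.74 to 6.32 in the silenced cells, against 70.9 to 89.8. Of the 3 tested only Myh6 was called, with means of 78.0 CPM with siControl and 4.80 with siTead1/4. The part of these markers in the result was not tested.

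Acta1 showed a smaller difference in the same cells. It was at 5156 and 4729 CPM with siControl at day 3 and at 2401 and 3124 with siTead1/4 (-0.87, SE 0.55, adjusted p = 0.55), without overlap. At day 6 its silenced libraries were at 3370 and 6986, on either side of the siControl libraries at 5230 and 5143 (0.00, SE 0.55). The cytoplasmic and smooth muscle genes overlapped between the siRNAs at days 0 and 3. At day 6 Acta2, Actb, Actg1, Tagln and Cnn1 were higher in both silenced libraries than in both siControl libraries, with log2 fold changes of 0.69, 0.36, 0.42, 0.64 and 1.37 and adjusted p from 0.86 to 0.93, so none passed the test. The fibroblast markers summed to 2336 to 5477 CPM in these silenced cells and to 2919 to 2985 with siControl, and the smooth muscle and pericyte markers to 637 to 669.5 and 495 to 638. Their part in these values was not tested.

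**Figure D4:**
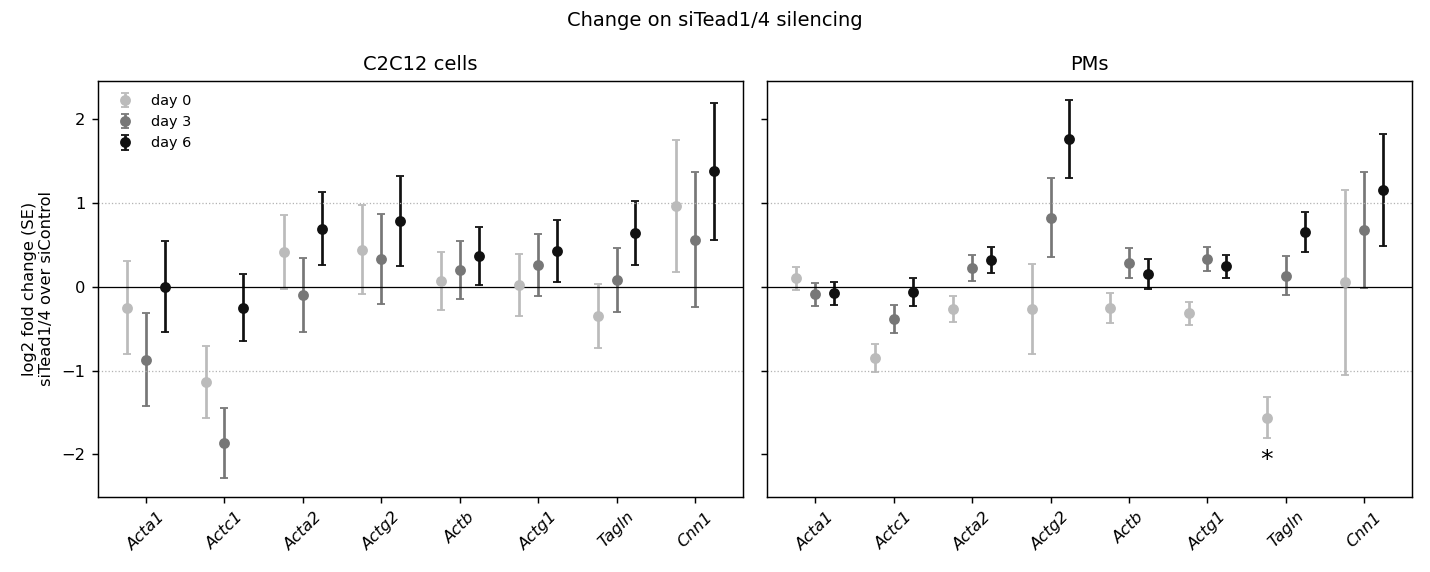
Log2 fold change of each gene for siTead1/4 over siControl at days 0, 3 and 6, in C2C12 cells and PMs, with SE from edgeR and 2 libraries per group (light, mid and dark grey for the 3 days). Dotted lines mark 1 and -1, and the star marks the 1 called value, Tagln in PMs at day 0 (-1.56); Actc1 is lowest in C2C12 cells at day 3 (-1.86, not called).

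In PMs silencing lowered Tagln before differentiation. Tagln was at 77.7 and 72.5 CPM with siControl and at 30.1 and 21.3 with siTead1/4 at day 0 (-1.56, SE 0.24, adjusted p = 0.0056). Tagln was the 1 gene of the 8 that edgeR called at any day in the fit with low-count genes filtered out. That fit held all PM libraries and left replicate number out of the model. The backgrounds were 2.6%, 3.3% and 0.743% at days 0, 3 and 6. Without silenced replicate 2 the value was -1.33 and the call was lost (adjusted p = 0.053). At day 3 the level was 232 and 201 against 239 and 239 (0.13, SE 0.24, adjusted p = 0.80), and at day 6 it was 480 and 268 against 633 and 539 (0.65, SE 0.24, adjusted p = 0.29). Both silenced libraries were thus lower at day 0 and higher at days 3 and 6.

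Actc1 passed the adjusted p at day 0 without reaching the fold threshold. It was at 1614 and 1691 CPM with siControl and at 903 and 947 with siTead1/4 (-0.85, SE 0.17, adjusted p = 0.015). At day 3 it was at 4158 and 3918 against 3108 and 3076 (-0.39, SE 0.17, adjusted p = 0.19), and at day 6 the groups overlapped (-0.06). The myogenic markers summed to 6492 to 7411 CPM in silenced PMs and 7886 to 8192 with siControl at day 0, and to 15200 to 17480 and 19730 to 19900 at day 3, and their part in these values was not tested. Acta1 overlapped at every day, with log2 fold changes of 0.10, -0.09 and -0.08 and SE of 0.14.

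Actg2 had the widest difference at day 6 in PMs. Its level was 16.6 and 5.05 CPM with siControl and 40.4 and 32.9 with siTead1/4 (1.76, SE 0.46, adjusted p = 0.11), without overlap, and DESeq2 called it (1.76, adjusted p = 0.006). With siControl replicate 1 left out the value was 2.85 and edgeR called it (adjusted p = 0.025), and without siControl replicate 2 it was 1.14. Cnn1 was at 8.57 and 2.12 against 16.2 and 7.57 (1.15, SE 0.66, adjusted p = 0.57), where the lower silenced library lay under the higher siControl library. Within each replicate number the silenced library was the higher one. With replicate number as a block in the model, edgeR called Actg2 (1.90, adjusted p = 0.0038) and Cnn1 (1.30, adjusted p = 0.045) at day 6. Without the block but with no filter on low counts, edgeR also called Actg2 at day 6 (1.77, adjusted p = 9.1e-05). With low-count genes filtered out, no block and all PM libraries kept, edgeR called none of the 8 at days 3 and 6. Actc1 and Actg1 had an unadjusted p under 0.05 at day 3 (22.7% of all genes) and Actg2 and Tagln at day 6 (11.9%). At day 0 Actc1, Actg1 and Tagln had one (23.3%). DESeq2 called none of the 8 at day 3. At day 3 Actg2 had 0.82 (adjusted p = 0.34), with both silenced libraries higher, and Cnn1 0.67 (adjusted p = 0.63). At day 0 they had -0.27 and 0.05. The values of Acta2, Actb and Actg1 lay between -0.32 and 0.33 over the 3 days. The smooth muscle and pericyte markers summed to 816 to 887 CPM in the silenced PMs at day 6, against 743 to 760 with siControl, and the fibroblast markers to 3701 to 4285 against 4278 to 5190, and their part in these values was not tested.

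The course of differentiation was also tested within the silenced cells. In silenced PMs all 8 genes were called at both days, 6 higher and 2 lower, beside 15.9% higher and 12.4% lower (28.3% in all) at day 3 and 18.2% and 13.7% (31.9% in all) at day 6 over all genes. Tagln rose by 3.16 at day 3 and 4.45 at day 6 (SE 0.27, adjusted p = 5.2e-07), Actg2 by 2.44 and 4.47 and Cnn1 by 3.85 and 5.70. Acta2, which stayed under the fold threshold in siControl PMs, had 1.01 and 1.21, but at day 3 it fell under the threshold without silenced replicate 1 of day 0 (0.95) or replicate 2 of day 3 (0.90). These comparisons take the silenced day 0 libraries as their base, in which Tagln and Actc1 were lower than in siControl, so the 2 sets of values are given side by side only.

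In silenced C2C12 cells Acta1 (7.13 and 8.08) and Actc1 (7.07 and 8.08) rose at days 3 and 6, while Actb (-1.33 and -1.52) and Actg1 (-1.23 and -1.40) fell. Acta2 (1.51) and Tagln (1.77) were called by edgeR at day 6, and the backgrounds were 24.6% and 25.1%. At day 3 Acta2 was under the threshold (0.99, adjusted p = 0.11), but DESeq2 (1.03, adjusted p = 0.045) and the edgeR fit over all 24 libraries (1.06, adjusted p = 0.021) called it. Without silenced replicate 2 of day 0, the library in which these messages were high, Actb had -0.77 and -0.96 and Actg1 -0.53 and -0.70 and neither was called. Without that library Acta2 (1.85) and Tagln (1.47) were called at day 3. Leaving out replicate 2 of day 3 also ended the day 3 calls of Actb (-0.94) and Actg1 (-0.83), leaving out either replicate of day 6 ended that of Actg1 at day 6 (-1.32 and -1.47), and the call of Acta2 at day 6 was lost without replicate 1 of day 0 (0.98) or either replicate of day 6 (1.54 and 1.49).

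Whether the effect of silencing differed between PMs and C2C12 cells was tested as an interaction. edgeR called none of the 8 at any day, where 0.00591%, 1.25% and 0.0354% of all genes were called at days 0, 3 and 6. For Actc1 at day 3 the difference was 1.45 (SE 0.46, adjusted p = 0.15), with -1.86 in C2C12 cells and -0.39 in PMs, and DESeq2 called it (1.47, adjusted p = 0.046). For Tagln at day 0 it was -1.19 (SE 0.48, unadjusted p = 0.024 in the quasi-likelihood test of edgeR, adjusted p = 1), with -0.35 in C2C12 cells and -1.56 in PMs. These were the members with an unadjusted p under 0.05, which 4.28%, 13% and 5.41% of all genes had at the 3 days.

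The ratio of Actc1 to Acta1, each per kb, set the sarcomeric pair against one another within a library. In siControl PMs it was 0.579 and 0.698 at day 0, was 0.343 and 0.349 by day 3, and stood at 0.205 and 0.256 on day 6. In silenced PMs it was 0.290 and 0.378, then 0.292 and 0.268, and then 0.205 and 0.265. The silenced libraries were thus lower at days 0 and 3 and overlapped at day 6. In siControl C2C12 cells the ratio was 0.330 and 0.502 before differentiation, 0.334 and 0.407 on day 3, then 0.213 and 0.250 on day 6. With siTead1/4 it was 0.198 and 0.192, then 0.204 and 0.171, then 0.221 and 0.181. Here too the groups were separate at days 0 and 3 and overlapped at day 6. With 2 libraries per group an exact test cannot pass the threshold, so these ratios are given as a description. At day 0 in C2C12 cells they rest on 120 to 1278 counts per gene. The ratio of Actb to Actg1 ran from 4.33 to 5.49 in C2C12 cells and from 4.56 to 6.22 in PMs over all 12 libraries of each.

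**Figure D5:**
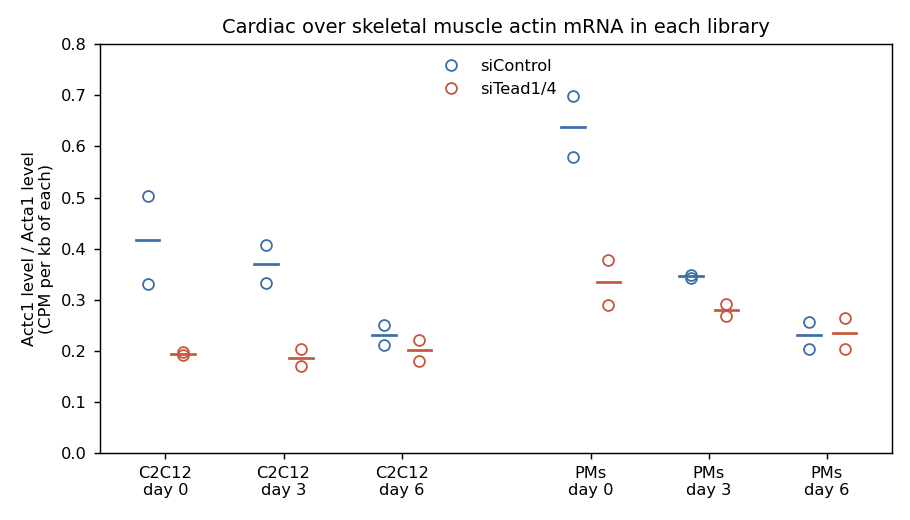
Level of Actc1 divided by that of Acta1, each in CPM per kb, in every library of C2C12 cells and PMs at days 0, 3 and 6. Circles are libraries, 2 per group, and bars are means; the siTead1/4 libraries (red) lie below the siControl libraries (blue) at days 0 and 3 in both cell types.

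Genes that act with the actins were followed in lists. Of Srf and its cofactors Mkl1, Mkl2 and Myocd, none was called in any comparison of siTead1/4 with siControl. The mean of Srf lay at 119 and 98.5 CPM on days 0 and 3 in C2C12 cells with siControl, and at 122 and 105 in PMs. Silencing gave log2 fold changes of Srf from -0.09 to 0.26 over the 6 comparisons. Myocd, the cofactor restricted to smooth and cardiac muscle, had mean levels of at most 2.45 CPM. In PMs at day 0 it was at 0.448 with siControl and 1.15 with siTead1/4 (1.36, SE 0.43, adjusted p = 0.084 with edgeR). In C2C12 cells at day 0 it was at 0.366 with siControl and 2.45 with siTead1/4 (2.65, SE 0.88, adjusted p = 0.29 with edgeR). Myocd had lower mean levels at days 3 and 6 than at day 0 in both cell types with either siRNA. In PMs with siTead1/4 the log2 fold changes were -0.84 and -1.46, called at day 6 only (adjusted p = 0.016 with edgeR). In PMs with siControl they were -1.09 and -0.74, neither called. In C2C12 cells with siTead1/4 they were -6.55 and -4.46 at days 3 and 6, both called, from a day 0 mean of 2.45 CPM (SD 2.02, n = 2). In C2C12 cells with siControl they were -3.49 and -3.38 (adjusted p = 0.054 and 0.059 with edgeR).

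Among the thin filament and striated actin binders, 28 of which were tested, differentiation of siControl cells raised 19 and lowered 2 at day 3 in both C2C12 cells and PMs, with median log2 fold changes of 5.51 and 2.01 beside -0.01 and 0.01 over all genes, of which 28.7% and 32.3% were called. The largest in C2C12 cells were Abra (9.46), an activator of Srf signalling in striated muscle, the myosin chaperone Unc45b (8.93) and the fast troponin C gene Tnnc2 (8.63), and in PMs the tropomodulin Tmod4 (5.78), which caps thin filaments, Nebl (-5.28) and Abra (3.65). Silencing lowered 4 of these 28 in C2C12 cells at day 3 and raised none. The median was -1.03 beside 0.01 over all genes, of which 1.27% were called. The 3 with the widest change were the Z-disc actinin Actn2 (-3.16, SE 0.54, adjusted p = 0.029), Tmod1 (-2.23, SE 0.33, adjusted p = 0.017) and Nebl (-1.73). In PMs at day 3 silencing lowered 2, the actin-binding Xirp2 (-2.27) and the slow troponin I gene Tnni1 (-1.01), with a median of -0.16. Over all genes 3.3% were called in this comparison.

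The smooth muscle contractile and cytoskeletal genes did not share 1 direction in differentiation. At day 3 in siControl C2C12 cells 9 of 30 rose and 4 fell, and in PMs 8 of 31 rose and 8 fell, with medians of 0.01 and -0.01. Over all genes 16% rose and 12.7% fell in C2C12 cells, and 17.5% rose and 14.9% fell in PMs. Mylk (4.99), which encodes a myosin light chain kinase, rose in C2C12 cells, as did Itga8 (4.42), which was below 1 CPM. Smtnl1 (6.25) and Smtnl2 (2.88) rose in PMs. On silencing, 1 of 30 fell in C2C12 cells at day 3 (Smtnl2, -2.83), beside 1.27% of all genes called. At day 0 in PMs, where Tagln was called, none of the 31 was, with a median of -0.22 beside -0.01 over all genes. Of all genes 2.6% were called there.

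Of the genes of monomer and filament turnover, 4 of 35 rose and 8 fell at day 3 in siControl C2C12 cells, and 5 of 36 rose and 15 fell in PMs (medians -0.60 and -0.86). Over all genes 28.7% and 32.3% were called in these comparisons, and 12.7% and 14.9% were called lower. The formin Diap3 fell in both (-2.83 and -2.97), the bundling protein Fscn1 (-2.73) and cofilin Cfl1 (-1.89), which severs filaments, fell in PMs, and supervillin Svil rose in C2C12 cells (2.86). Of 13 genes of actin folding, the chaperonin subunits Cct7 (-1.11) and Cct6a (-1.02) fell in C2C12 cells and the prefoldin subunit Pfdn4 (-1.22) in PMs, and none rose. Silencing called 1 gene of these 2 lists at day 3, the formin Fmnl2 in PMs (1.08, SE 0.21, adjusted p = 0.012). Over all genes it called 1.27% in C2C12 cells and 3.3% in PMs at that day.

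The genes with the closest courses to each member were sought among 16918 genes over the 12 group means, by the root mean square difference of the centred log2 CPM. Closest to Acta1 were Mylpf (0.197), Myom1 (0.259) and Inpp4b (0.266), and to Actc1 Myom3 (0.309), Pkhd1 (0.374) and Srpk3 (0.376), against spreads of 3.30 and 3.31 of the 2 actins themselves. Gm6180 (0.10) and Cfl1 (0.104) were close to Actb, and Cfl1 (0.105), Gm6180 (0.107) and Rpa3 (0.136) to Actg1. Among the 8 genes Actb and Actg1 differed by 0.0711, less than from any other gene listed, and Acta1 and Actc1 by 0.506. For the other genes the nearest were Pdlim4 (0.221), Zc3h6 and Tbc1d23 for Acta2, Ccl17 (0.310), Ifi47 and Fstl3 for Tagln, Timp3 (0.541), Krt80 and Chn2 for Actg2, and Card10 (0.696), Hr and Angptl4 for Cnn1. Acta2 differed from Tagln by 0.791 and Actg2 from Cnn1 by 1.02, so the 4 genes of smooth muscle did not share 1 course. The points are group means that share libraries and cell type, and most of the spread of Acta1 and Actc1 lies in the day 0 libraries of C2C12 cells.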

How the data were processed

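PolyA RNA of 24 libraries, 12 of C2C12 cells and 12 of PMs, was sequenced after an unstranded library preparation. The authors deposited raw read counts per gene with the length of each gene model, and the counts were used as deposited; their normalized columns were not used. The submitters' processing notes name TopHat2 2.0.10, Bowtie2 2.1.0, HTSeq 0.6.1, DESeq2 1.8.1, CASAVA 1.8.2 and mm9 without their roles; read length and the treatment of reads with several matches are not given in the sources used here. The table also holds 36 columns of 12 libraries that no label here describes, and these were not used.

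The counts were fitted with edgeR 4.0.16 in R 4.3.3 (filterByExpr, TMM, quasi-likelihood test), in 1 fit per cell type and 1 over all 24 libraries for comparisons between cell types, with Benjamini-Hochberg adjustment over all genes of each fit. Calls required an adjusted p under 0.05 and a log2 fold change beyond 1. Alternatives were DESeq2 1.42.0, RLE normalization, other filters, other sets of libraries, the replicate number as a block and each library left out. The steps were tested on simulated data. CPM levels came from all 24 libraries, divided by the length in the table where genes are compared. The members, lists and tests were chosen with earlier results of these data known. Named were all members, Tead1, Tead4, Srf, Mkl1, Mkl2, Myocd, the 3 nearest courses per member and up to 3 called genes per list with the largest change at day 3; values of some genes that this rule names are not reported here. Replicates are called biological by the labels, but nothing says whether they came from separate cultures or animals, so the p-values measure the spread between these libraries. Depth was 25453830 to 52784510 counts per library.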

Additional observations from a re-analysis of the deposited data

Results flagged for a closer look

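The change of siControl cells on differentiation differed between PMs and C2C12 cells for 5 of the genes in a test of the difference itself (edgeR, Benjamini-Hochberg adjusted over 16926 genes). Given as PMs minus C2C12 cells on the log2 scale, it was -5.64 for Acta1 and -6.54 for Actc1 at day 3, and -5.65 and -6.46 at day 6, with adjusted p of 1.5e-05, 3.3e-07, 1.1e-05 and 2.7e-07. For Cnn1 it was 4.97 at day 3 (adjusted p = 0.02) and 6.33 at day 6 (adjusted p = 0.0036), where the PM base was 8 and 9 counts in the 2 libraries of day 0. For Actg2 at day 6 it was 3.34 (adjusted p = 0.0093), with 2.24 to 3.96 when 1 library was left out. For Tagln at day 6 it was 1.49 (adjusted p = 0.046), with 1.02 to 1.90 when 1 library was left out, and 2 of those 8 fits called it. Strain and culture differ with the cell type, and cannot be told apart from it.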

How the results depend on the processing

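Of 192 single-gene results, 89 were called under at least 1 fit, and none of the values called by edgeR in the report changed sign in another test of the counts. Silencing called 0 results over 3 days in C2C12 cells, but 3 with no filter on low counts, 1 with DESeq2, 1 with shrunken DESeq2 fold changes and 1 with all 24 libraries in one fit. In PMs it called 1, but 2 with no filter, 2 with either DESeq2 setting and 3 with the replicate block. Between days 6 and 3 in siControl PMs the count of 0 became 2 with no filter and 2 with the block, and that of the difference of silencing between cell types became 1 with no filter and 1 with either DESeq2 setting. The cause was not tested. The share of all genes called was not worked out under these other fits, nor with a library left out. The counts under them thus have no background beside them. Relative to Actb in the same library, the fall of Actg1 vanished or turned, to 0.02 in siControl C2C12 cells at day 6, 0.13 and 0.16 in silenced C2C12 cells and 0.06 and 0.00 in silenced PMs at days 3 and 6, since Actb fell as well.

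With each library left out in turn, silencing called 0 to 0 in C2C12 cells and 0 to 2 in PMs, and its difference between cell types 0 to 0. Differentiation over days 3 and 6 called 7 to 9 in siControl C2C12 cells, 11 to 13 in siControl PMs, 8 to 11 in silenced C2C12 cells and 15 to 16 in silenced PMs. Day 6 against day 3 called 0 to 0 in C2C12 cells and 0 to 2 in PMs, PMs against C2C12 cells 9 to 11, and the difference of the siControl response 5 to 8. Without 1 library, uncalled values turned for Actg2 between days 3 and 6 in siControl PMs (-0.01 to 1.70), for Actg2 at day 3 (-1.65 to 0.03) and Cnn1 at day 6 (-2.06 to 0.01) in silenced C2C12 cells. Same-numbered libraries correlated above 0.1 in 6 of 15 pairs of groups in C2C12 cells (-0.203 to 0.525) and 14 of 15 in PMs (0.0695 to 0.539), with 0.414, 0.443 and 0.539 between the siRNAs at days 0, 3 and 6 in PMs. As not every pair passed 0.1, the block was kept as an alternative. With the replicate block Actg2 (1.90, adjusted p = 0.0038, edgeR) and Cnn1 (1.30, adjusted p = 0.045) were called on silencing in PMs at day 6, and Acta2 at day 6 in siControl C2C12 cells was not (1.23, adjusted p = 0.059). Without Actg1, an alternative chosen after seeing the data, the sarcomeric share in siControl PMs at day 0 was 65.6% and 62.6% in place of 62.6% and 59.7%. With 2 libraries per group and as few as 8 counts for Cnn1, small changes were not detectable.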
